A study of Bos taurus with 6 samples.

Results

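The genes described here encode the nuclear subunits of the mitochondrial respiratory chain and of ATP synthase, measured in 3 depth zones of normal articular cartilage from 2 cattle. They were chosen by symbol alone (symbols that start with NDUF, UQCR, COX4 to COX8 or ATP5, together with SDHA, SDHB, SDHC, SDHD and CYC1), so measured values decided no single member. The rule found 107 probesets for 85 of the 11636 gene symbols on the array. A probeset is the group of oligonucleotides that an Affymetrix array uses to report 1 transcript. The brightest probeset of each symbol, by mean over the 6 arrays, stood for the gene. By complex the genes were 37 of complex I, 4 of complex II, 9 of complex III, 15 of complex IV and 15 of complex V, with NDUFA4 and NDUFA4L2 kept as a family of their own. The other 3 matched the rule by name without being subunits. They were NDUFAF3, a complex I assembly factor, COX4NB, the older name of EMC8, a protein of the endoplasmic reticulum, and ATP5S, now DMAC2L.

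Tissue came from the femoral condyles of skeletally mature cattle of 14 to 30 months, all of it normal (grade 1) cartilage, with no treatment in any group. Cores were cut parallel to the joint surface in 50 µm sections. The superficial zone (SZ) was the upper 10% of the depth, the middle zone (MZ) the central 40% and the deep zone (DZ) the lower 30%, and about 200 µm between zones was discarded. Each zone was measured in animals bov1 and bov4, which gave 1 array per zone and animal (n = 2 per zone, 6 arrays in all). From each sample 5 ng of total RNA was amplified before labelling. Below, values in a zone are given for bov1 first and bov4 second.

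The respiratory chain sits in the inner mitochondrial membrane. Complex I takes electrons from NADH and complex II from succinate, and both pass them to ubiquinone. Complex III hands them on to cytochrome c, and complex IV reduces oxygen with them. Complexes I, III and IV pump protons, and complex V, the ATP synthase, uses the returning flow of protons to make ATP. Complex II is also the succinate dehydrogenase of the tricarboxylic acid cycle. Articular cartilage has no blood vessels, oxygen reaches its cells by diffusion, and chondrocytes are known to make much of their ATP by glycolysis.

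Values are log2 expression values as deposited, so a difference of 1 is 2-fold. The array medians were 4.42 to 4.46 and the lower quartiles 2.71 to 2.87. Of the 85 genes, 81 lay above the array median on all 6 arrays and 83 lay more than 1 log2 unit above the lower quartile on all 6. The exceptions to the second count were COX8B and COX6A2, the forms of 2 complex IV subunits that are typical of heart and skeletal muscle. None of the 13 subunits encoded by mitochondrial DNA had a named probeset, so only nuclear genes are described. Another 6877 probesets carry no symbol and were not assigned to genes here. Brightness was set beside the array quartiles, used to choose a gene's probeset, and summed over lists of cell type markers. No ratio of transcripts between genes is drawn from it, because hybridisation differs between probesets.

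No respiratory chain gene passed the adjusted test between any of the zones. The tests were moderated limma tests with a block for animal, adjusted by the Benjamini-Hochberg method over 24016 probesets, and an adjusted p under 0.05 was called. For SZ against MZ the count was 0 of 85 genes, where 0.0416% of all probesets were called. For SZ against DZ it was 0 of 85, where 2.75% of all probesets were called, and for MZ against DZ it was 0 of 85, where 0.704% were called. The F test for any difference between zones called 0 of 85, against 1.84% of all probesets. With background shares this low, a count of 0 does not set these genes apart. The smallest adjusted p was 0.477 for SZ against MZ (ATP5G2), 0.13 for SZ against DZ (NDUFC1) and 0.55 for MZ against DZ (NDUFC1). A p above the threshold does not show that zones were alike, and the 95% intervals give the sizes that 2 animals leave room for.

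At an unadjusted p under 0.05 the count was 2 of 85 genes for SZ against MZ (2.35%), where 8.84% of all probesets passed. Both NDUFB10 and ATP5G2 were higher in SZ. For SZ against DZ the count was 8 (9.41%), where 17.6% of all probesets passed. NDUFA11, NDUFAB1, NDUFC1 and COX7A2L were higher in SZ, and NDUFB7, SDHA, SDHC and NDUFA4 were lower in SZ. For MZ against DZ the count was 0, where 9.93% of all probesets passed. These p-values are not adjusted for the number of probesets and are no calls.

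The differences were small in log2 units. The difference lay within 1 log2 unit of 0 for 85 of 85 genes for SZ minus MZ, 84 for SZ minus DZ and 85 for MZ minus DZ, and the exception was NDUFC1. Over all probesets that share was 95.5%, 90.3% and 94.8% for the same comparisons. The whole 95% interval lay within 1 log2 unit of 0 for 75.3% of the genes for SZ minus MZ, 68.2% for SZ minus DZ and 70.6% for MZ minus DZ, beside 62.1%, 52.0% and 60.7% of all probesets. For these genes a zone difference of 2-fold or more lay outside the interval. The median width to each side of an estimate was 0.62. The intervals reached farthest to 1.80 for SZ minus MZ (NDUFB10), 1.78 for SZ minus DZ (NDUFAB1) and, on the negative side, -1.49 for MZ minus DZ (NDUFA8).

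**Figure D1:**
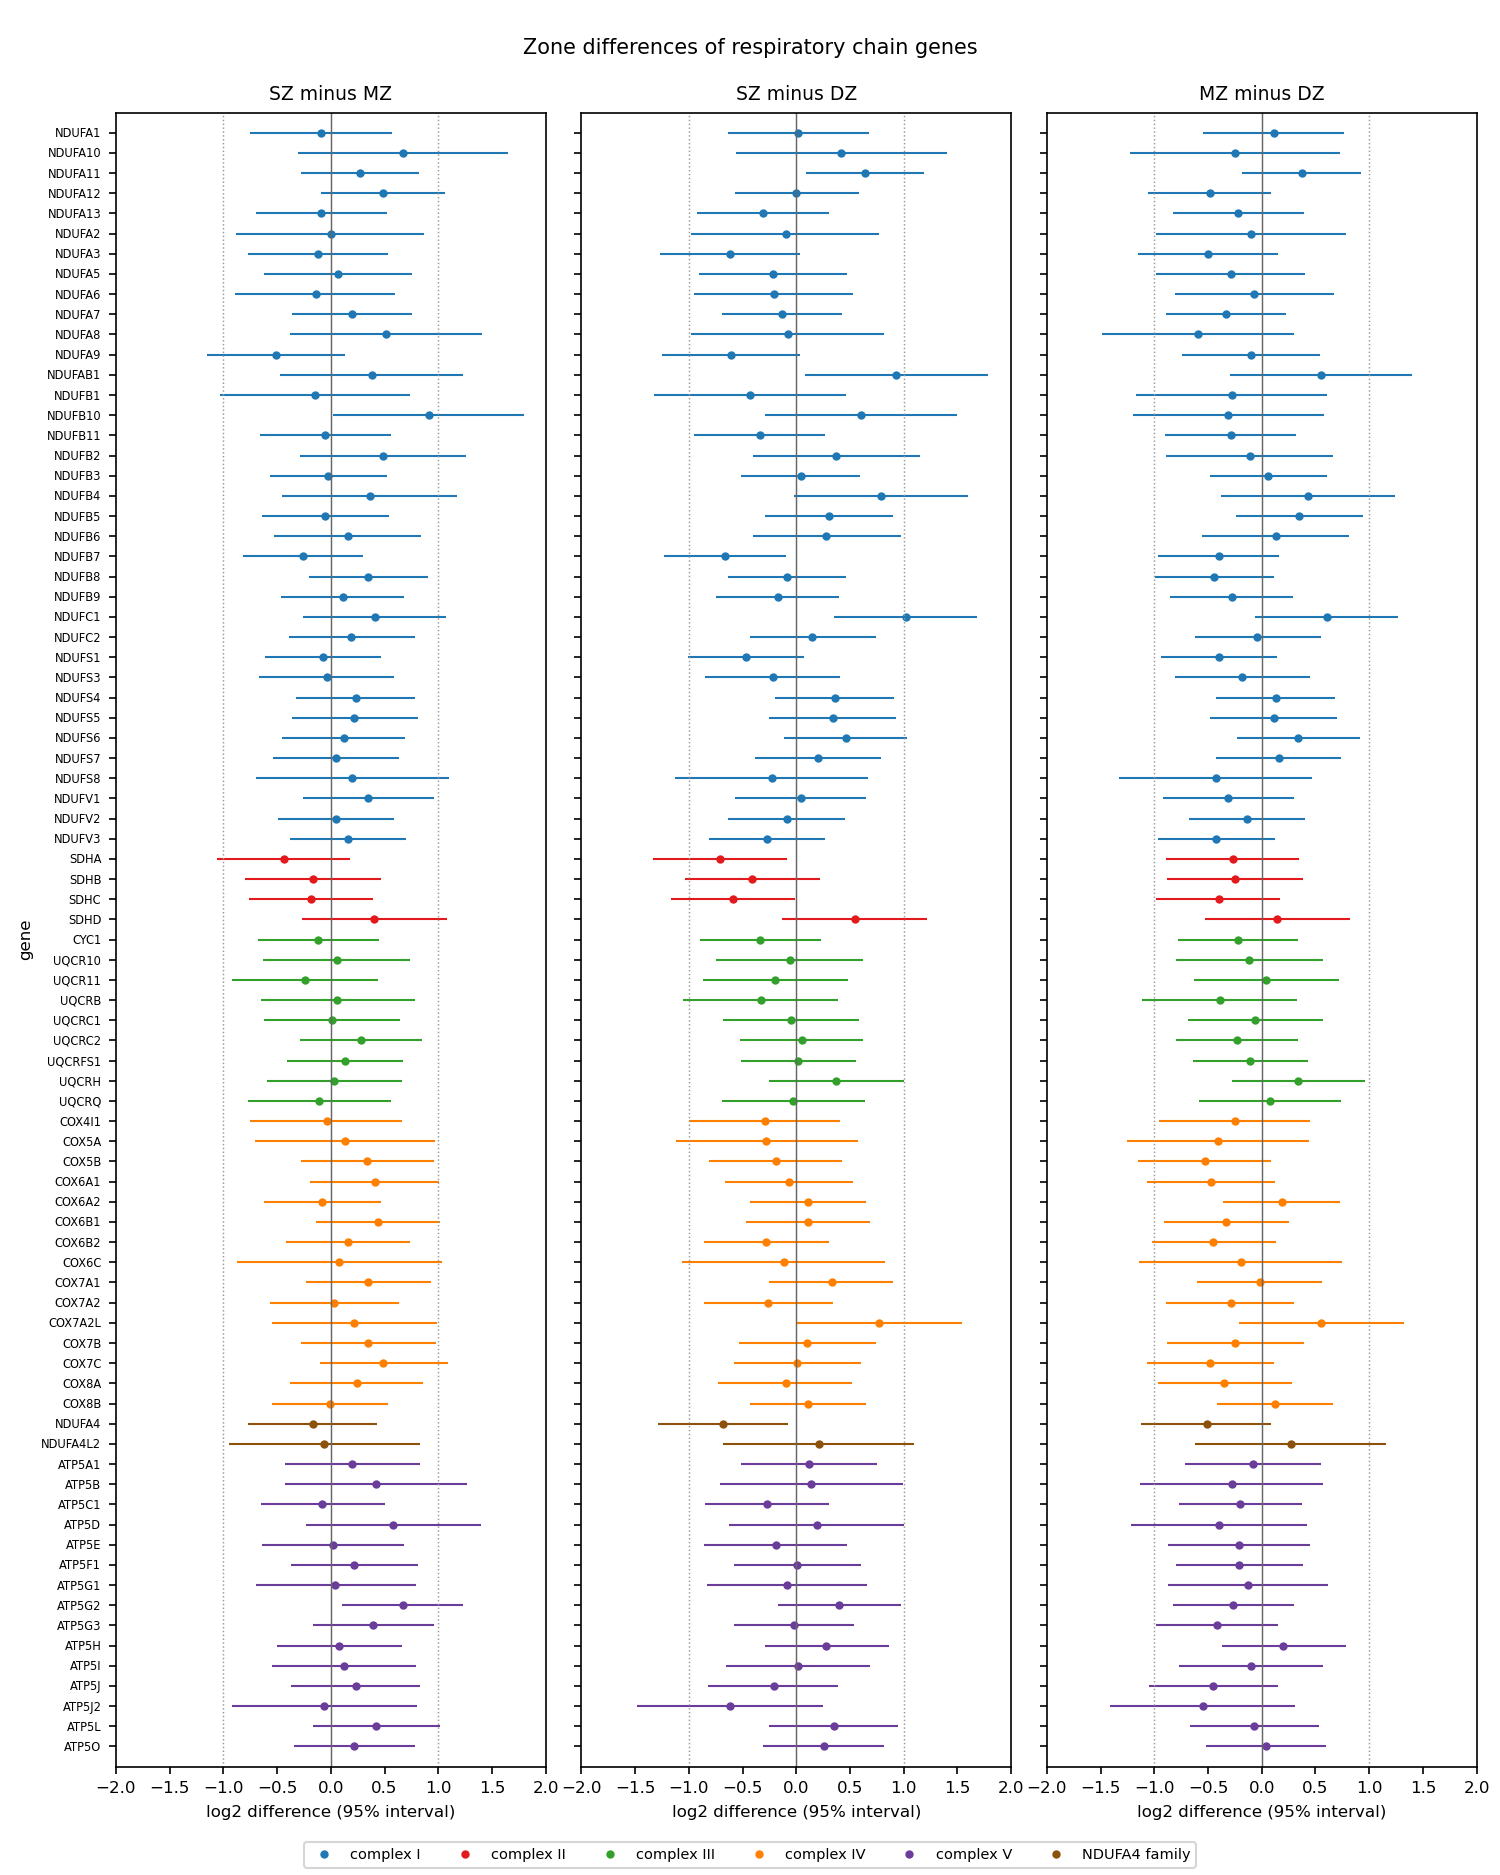
Log2 difference between zones for 81 respiratory chain genes, coloured by complex, with SZ minus MZ, SZ minus DZ and MZ minus DZ from left to right. Points are the limma estimates, bars their 95% intervals (n = 2 arrays per zone), and dotted lines mark a difference of 1 log2 unit in either direction; only NDUFC1, for SZ minus DZ, has its point outside the lines.

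The median of the 85 differences was 0.12 for SZ minus MZ, where the median of all probesets was 0.00. It was -0.03 for SZ minus DZ (0.06 over all probesets) and -0.21 for MZ minus DZ (0.06 over all probesets). Over the 12008 probesets brighter than the median probeset, the range in which most of these genes lie, the medians were -0.04 for SZ minus MZ, -0.05 for SZ minus DZ and 0.00 for MZ minus DZ, and the SZ minus DZ median of the genes was close to that. In the dCHIP table the SZ minus MZ median of the genes was 0.04, and with the mean over a gene's probesets the MZ minus DZ median was -0.12. The difference was above 0 for 58 of 85 genes for SZ minus MZ, 41 for SZ minus DZ and 23 for MZ minus DZ. In bov1 the medians were 0.08 for SZ minus MZ, -0.08 for SZ minus DZ and -0.21 for MZ minus DZ, and in bov4 they were 0.15, 0.08 and -0.06. The sign of the SZ minus DZ median differed between the animals, and the MZ minus DZ median was -0.09 without the DZ array of bov1. The SZ minus DZ median was 0.09 without that array, -0.14 in the dCHIP table and 0.04 with quantile normalisation. The DZ arrays also carry a different code in the labels from the SZ and MZ arrays, so that code and the deep zone cannot be told apart.

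The genes whose arrays did not overlap between zones were counted as well. For SZ against MZ both SZ arrays lay above both MZ arrays for 19 genes (22.4%), beside 17.7% of all probesets, and below them for 3 genes (3.53%), beside 17.5%. Those 3 were NDUFA9, SDHA and SDHB. For SZ against DZ the SZ arrays lay above for 18 genes (21.2%, beside 26.3% of all probesets) and below for 13 (15.3%, beside 19.1%). For MZ against DZ the MZ arrays lay above for 11 (12.9%, beside 22.7%) and below for 16 (18.8%, beside 15.2%). Over the 12008 probesets brighter than the median probeset, the shares above and below were 16.4% and 21.4% for SZ against MZ. They were 20.7% and 25.4% for SZ against DZ, and 17.2% and 17.6% for MZ against DZ. The share of genes with SZ above DZ was thus close to that of the brighter probesets. No test was made of these shares.

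Of the 85 genes, 7 ranked SZ below MZ below DZ in both animals: NDUFA3, NDUFA9, NDUFB7, NDUFS1, SDHC, CYC1 and ATP5C1. Another 7 ranked SZ above MZ above DZ in both: NDUFA11, NDUFAB1, NDUFC1, NDUFS4, NDUFS6, SDHD and COX7A2L. Over all probesets the corresponding shares were 6% and 8.03%, so orderings of this kind were about as frequent among all probesets. Differences between neighbouring zones in these orders were as small as the rounding of the values for SDHC and CYC1 in bov4.

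Complex I, the NADH dehydrogenase, has 7 core subunits among the 37 genes, which carry the redox centres, and 30 accessory subunits, which surround them. The median difference of its genes was 0.16 for SZ minus MZ, 0.00 for SZ minus DZ and -0.17 for MZ minus DZ. The core subunits had medians of 0.05, -0.09 and -0.18 for these comparisons, and the accessory subunits 0.16, 0.01 and -0.11.

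NDUFC1, an accessory subunit of the membrane arm, had the highest SZ minus DZ difference of the 85 genes. It was 7.46 and 7.27 in SZ, 7.41 and 6.50 in MZ, and 6.47 and 6.23 in DZ. Both SZ arrays lay above both DZ arrays, and the MZ arrays lay apart from each other. SZ minus DZ was 1.02 (SE 0.27, 95% interval 0.35 to 1.68, 2.02-fold, limma adjusted p = 0.13) and MZ minus DZ was 0.61 (adjusted p = 0.55). In the authors' other normalisation, the dCHIP table, SZ minus DZ was 0.61.

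NDUFAB1 is the mitochondrial acyl carrier protein, which is both a complex I subunit and a carrier in mitochondrial fatty acid synthesis. It was 7.53 and 6.73 in SZ, 7.04 and 6.46 in MZ, and 5.97 and 6.43 in DZ. Most of its range came from bov1, in which SZ exceeded DZ by 1.56, while in bov4 it did so by 0.30. SZ minus DZ was 0.93 (SE 0.35, 95% interval 0.08 to 1.78, adjusted p = 0.248). NDUFA11, another membrane arm subunit, was 6.11 and 6.41 in SZ, 5.94 and 6.04 in MZ, and 5.57 and 5.67 in DZ, an order that both animals shared. Its SZ minus DZ difference was 0.64 (SE 0.23, 95% interval 0.09 to 1.19, adjusted p = 0.223), but 0.21 in the dCHIP table. NDUFB4 was 7.47 and 7.93 in SZ, 7.72 and 6.96 in MZ, and 6.92 and 6.90 in DZ, so that MZ of bov1 lay with SZ and MZ of bov4 with DZ. Its SZ minus DZ difference was 0.79 (SE 0.33, 95% interval -0.02 to 1.60, adjusted p = 0.293).

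Other accessory subunits ran the opposite way. NDUFB7 was 6.05 and 5.56 in SZ, 6.22 and 5.90 in MZ, and 6.79 and 6.14 in DZ, and its SZ minus DZ difference was -0.66 (SE 0.23, 95% interval -1.23 to -0.10, adjusted p = 0.217). NDUFA9 was 6.44 and 6.78 in SZ, 7.25 and 7.0 in MZ, and 7.38 and 7.07 in DZ. It had the lowest SZ minus MZ difference of the 85 genes, -0.51 (adjusted p = 0.677), and its SZ minus DZ difference was -0.61 (adjusted p = 0.304). NDUFA3 was 6.61 and 6.50 in SZ, 6.80 and 6.56 in MZ, and 7.58 and 6.78 in DZ, with SZ minus DZ at -0.62 (adjusted p = 0.3). Within 1 complex, then, accessory subunits lay on both sides of 0, and 0 of the 30 passed the test.

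NDUFB10, an accessory subunit of the membrane arm, had the highest SZ minus MZ difference of the 85 genes. It was 8.13 and 7.21 in SZ, 6.50 and 7.02 in MZ, and 7.13 and 7.0 in DZ. The SZ array of bov1 stood above the other 5, and the SZ array of bov4 lay near the DZ arrays. SZ minus MZ was 0.91 (SE 0.37, 95% interval 0.02 to 1.80, adjusted p = 0.553), but 0.20 in the dCHIP table, where SZ minus DZ was -0.12 instead of 0.60. NDUFB2 was 8.98 and 8.51 in SZ, 8.18 and 8.34 in MZ, and 8.86 and 7.88 in DZ, with SZ minus MZ at 0.49 (adjusted p = 0.757). NDUFA8 was 7.69 and 6.83 in SZ, 6.44 and 7.05 in MZ, and 7.40 and 7.27 in DZ, with the lowest MZ minus DZ difference of the 85 genes at -0.59 (adjusted p = 0.68). The animals disagreed on the order of SZ and MZ for NDUFA8.

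Of the core subunits, NDUFS1, the largest iron-sulphur subunit, was 6.06 and 5.76 in SZ, 6.18 and 5.77 in MZ, and 6.51 and 6.23 in DZ, with SZ minus DZ at -0.47 (SE 0.22, adjusted p = 0.346). Its MZ minus DZ difference was -0.40. The dimmer probesets of NDUFS1 gave -0.09 and -0.01 for SZ minus DZ, and 0.13 and 0.31 for MZ minus DZ. NDUFV1, which binds NADH, was 5.94 and 5.85 in SZ, 5.53 and 5.57 in MZ, and 6.12 and 5.59 in DZ. Its SZ minus MZ difference was 0.35 (adjusted p = 0.788), but -0.10 in the dCHIP table. Neither NDUFS1 nor NDUFV1 passed the adjusted test in any comparison.

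Complex II, with 4 genes, was the complex whose median lay farthest from 0 between SZ and DZ. The median of its genes was -0.17 for SZ minus MZ, -0.50 for SZ minus DZ and -0.26 for MZ minus DZ. SDHA, the flavoprotein that oxidises succinate, was 7.24 and 7.16 in SZ, 7.65 and 7.64 in MZ, and 8.21 and 7.62 in DZ. Its SZ arrays lay below those of both deeper zones, and its SZ minus DZ difference was the lowest of the 85 genes at -0.71 (SE 0.25, 95% interval -1.33 to -0.09, 0.612-fold, adjusted p = 0.23). SZ minus MZ was -0.44 (SE 0.25, adjusted p = 0.718).

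SDHB, the iron-sulphur subunit, was 6.75 and 6.73 in SZ, 6.83 and 6.98 in MZ, and 7.40 and 6.90 in DZ, with SZ minus DZ at -0.41 (SE 0.26, adjusted p = 0.468). SDHC, a membrane anchor that binds haem, was 8.16 and 8.14 in SZ, 8.52 and 8.14 in MZ, and 8.94 and 8.53 in DZ, with SZ minus DZ at -0.59 (SE 0.24, 95% interval -1.17 to -0.01, adjusted p = 0.276). The other anchor, SDHD, ran the other way. It was 7.65 and 7.21 in SZ, 6.95 and 7.10 in MZ, and 6.70 and 7.07 in DZ, and its SZ minus DZ difference was 0.55 (SE 0.28, 95% interval -0.13 to 1.22, adjusted p = 0.374). In SDHA, SDHB and SDHC both SZ arrays lay below both DZ arrays, whereas in SDHD both lay above. Over all probesets the SZ arrays lay below the DZ arrays for 19.1% and above them for 26.3%. Among the brighter probesets these shares were 25.4% and 20.7%. None of the 4 complex II genes passed the adjusted test. The median of the 4 for SZ minus DZ was -0.28 without the DZ array of bov1 and -0.69 without the DZ array of bov4.

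**Figure D2:**
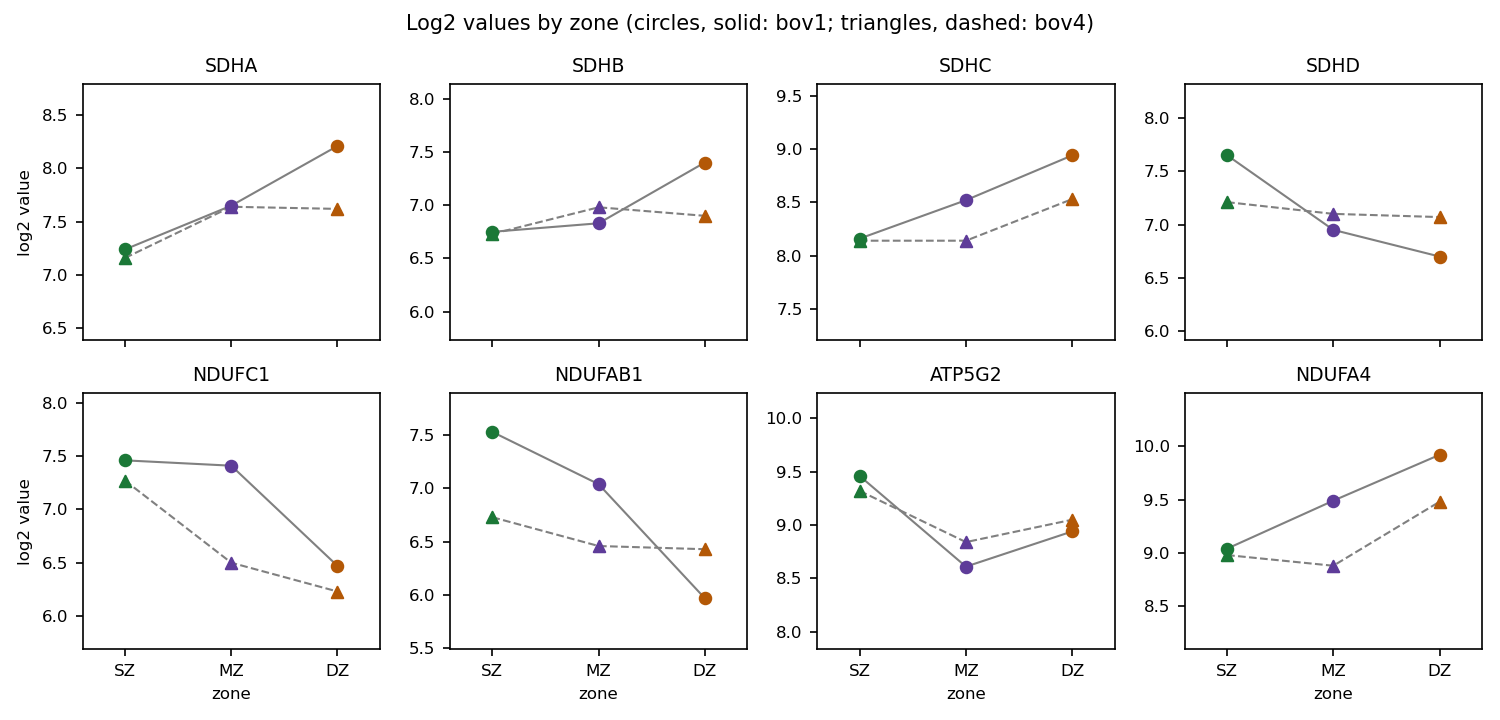
Log2 value by zone (SZ, MZ, DZ) for the 4 complex II genes and for NDUFC1, NDUFAB1, ATP5G2 and NDUFA4, with circles and solid lines for bov1 and triangles and dashed lines for bov4. Every panel spans the same number of log2 units; SDHA, SDHB and SDHC are lowest in SZ or tied there, SDHD, NDUFC1 and NDUFAB1 highest in SZ.

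Complex III, the cytochrome bc1 complex, had medians of 0.03 for SZ minus MZ, -0.05 for SZ minus DZ and -0.11 for MZ minus DZ. In the dCHIP table the SZ minus MZ median was -0.04, with quantile normalisation the SZ minus DZ median was 0.04, and with the mean over probesets the MZ minus DZ median was 0.02. UQCRFS1, the Rieske iron-sulphur protein, was 7.66 and 7.46 in SZ, 7.55 and 7.31 in MZ, and 7.64 and 7.44 in DZ, with SZ minus DZ at 0.02 (95% interval -0.51 to 0.56). CYC1, the cytochrome c1 that passes electrons on, was 6.34 and 6.18 in SZ, 6.57 and 6.18 in MZ, and 6.85 and 6.34 in DZ. Its SZ minus DZ difference was -0.34 (SE 0.23, adjusted p = 0.51), but -0.94 in the dCHIP table, and its MZ minus DZ difference was -0.22 here and -0.90 in the dCHIP table. The structural core protein UQCRC1 was 5.88 and 5.31 in SZ, 5.55 and 5.62 in MZ, and 5.68 and 5.61 in DZ. Its partner UQCRC2 was 7.25 and 7.07 in SZ, 6.94 and 6.81 in MZ, and 7.34 and 6.86 in DZ. The zone differences of both core proteins were within 0.28 log2 units of 0, and the smallest of their adjusted p-values was 0.815. In the dCHIP table UQCRC1 had larger differences from DZ, -0.43 for SZ minus DZ and -0.39 for MZ minus DZ.

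Complex IV, cytochrome c oxidase, had medians of 0.22 for SZ minus MZ, -0.07 for SZ minus DZ and -0.29 for MZ minus DZ. COX7A2L, which joins complexes III and IV in supercomplexes, was 9.62 and 9.50 in SZ, 9.35 and 9.32 in MZ, and 8.34 and 9.23 in DZ. The DZ array of bov1 was the low one, and SZ minus DZ was 0.77 (SE 0.31, 95% interval 0.01 to 1.54, adjusted p = 0.28). COX5B was 10.07 and 9.86 in SZ, 9.57 and 9.67 in MZ, and 10.42 and 9.89 in DZ. Both MZ arrays lay below all others, and MZ minus DZ was -0.53 (SE 0.26, adjusted p = 0.578), while in the dCHIP table it was -0.92. COX7C was 9.52 and 9.29 in SZ, 8.82 and 9.0 in MZ, and 9.54 and 9.24 in DZ, again with MZ lowest, and its SZ minus MZ difference was 0.49 (SE 0.24, adjusted p = 0.655).

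Several complex IV subunits have a general form and a form typical of heart and skeletal muscle. For subunit 6A, the general COX6A1 was 9.13 and 8.74 in SZ, 8.68 and 8.37 in MZ, and 9.40 and 8.60 in DZ, and the muscle form COX6A2 was 3.32 and 3.16 in SZ, 3.49 and 3.14 in MZ, and 3.25 and 3.01 in DZ. For subunit 8, COX8A was 7.71 and 7.56 in SZ, 7.22 and 7.56 in MZ, and 7.87 and 7.60 in DZ, and COX8B was 3.34 and 3.52 in SZ, 3.37 and 3.51 in MZ, and 3.18 and 3.46 in DZ. COX6A2 and COX8B thus stayed near the lower quartile of the arrays in every zone. For subunit 7A the picture differed, because the muscle form COX7A1 was 8.36 and 7.52 in SZ, 7.79 and 7.39 in MZ, and 7.92 and 7.31 in DZ. Its general counterpart COX7A2 was 9.41 and 8.72 in SZ, 9.43 and 8.63 in MZ, and 9.93 and 8.72 in DZ. COX7A1 read well above the array medians on all 6 arrays, with SZ minus MZ at 0.35 (SE 0.24, adjusted p = 0.774), but 0.07 in the dCHIP table. COX4I1, the general form of subunit 4, was 10.53 and 10.14 in SZ, 10.11 and 10.64 in MZ, and 10.57 and 10.69 in DZ. COX4I2, its form regulated by oxygen, had no named probeset.

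NDUFA4 was first assigned to complex I and is now counted with complex IV. It was 9.04 and 8.98 in SZ, 9.49 and 8.88 in MZ, and 9.92 and 9.48 in DZ, and SZ minus DZ was -0.68 (SE 0.25, 95% interval -1.29 to -0.08, adjusted p = 0.233). In the dCHIP table its adjusted p for this comparison was 0.0958, the smallest of the 85 genes there. NDUFA4L2, its paralogue, is known as a gene induced by low oxygen. It was 8.62 and 7.65 in SZ, 7.97 and 8.43 in MZ, and 7.96 and 7.90 in DZ. The animals disagreed on where it was higher, SZ in bov1 and MZ in bov4, and its SZ minus DZ difference was 0.21 (SE 0.37, 95% interval -0.68 to 1.10).

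Complex V had medians of 0.22 for SZ minus MZ, 0.02 for SZ minus DZ and -0.21 for MZ minus DZ, and in the dCHIP table the SZ minus DZ median was -0.14. For the 5 genes of its F1 part (catalytic head and central stalk) the medians were 0.20, 0.12 and -0.21. For the 10 genes of its membrane part and peripheral stalk they were 0.22, 0.02 and -0.17. ATP5G2 (ATP5MC2), a subunit of the rotating c-ring, was 9.46 and 9.32 in SZ, 8.61 and 8.84 in MZ, and 8.94 and 9.05 in DZ. Both SZ arrays lay above the other 4, and SZ minus MZ was 0.67 (SE 0.23, 95% interval 0.10 to 1.23, 1.59-fold, adjusted p = 0.477). ATP5A1 (ATP5F1A), the alpha subunit, was 10.18 and 9.78 in SZ, 9.77 and 9.79 in MZ, and 9.73 and 9.99 in DZ. ATP5B (ATP5F1B), the catalytic beta subunit, was 8.84 and 8.39 in SZ, 7.78 and 8.62 in MZ, and 8.53 and 8.43 in DZ. The MZ array of bov1 was the low one for ATP5B, and in bov4 the MZ array was the highest.

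ATP5D (ATP5F1D), the delta subunit of the F1 part, was 6.80 and 6.27 in SZ, 5.81 and 6.09 in MZ, and 6.83 and 5.87 in DZ. Its SZ minus MZ difference was 0.58 (SE 0.34, adjusted p = 0.715). ATP5J2 (ATP5MF), a membrane subunit, was 7.40 and 7.33 in SZ, 8.01 and 6.84 in MZ, and 8.65 and 7.31 in DZ. Bov1 exceeded bov4 for ATP5J2 by 1.16 in MZ and 1.34 in DZ, and its MZ minus DZ difference was -0.55 (SE 0.35, adjusted p = 0.694).

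In each zone most of the 85 genes read higher in bov1 than in bov4. The median deviation of the 85 genes from their own means was 0.12 and -0.04 in SZ, 0.06 and -0.21 in MZ, and 0.29 and -0.13 in DZ. Over all probesets it lay between -0.05 and 0.03. The number of genes above their own mean was 55 and 38 in SZ, 51 and 14 in MZ, and 62 and 25 in DZ. The value was higher in bov1 than in bov4 for 61 genes in SZ (71.8%, beside 47.5% of all probesets), 61 in MZ (71.8%, beside 54.1%) and 69 in DZ (81.2%, beside 52.3%).

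The median of bov1 minus bov4 was 0.16 in SZ, 0.24 in MZ and 0.41 in DZ, and in the dCHIP table it was 0.17, 0.25 and 0.38. Differences over 1 log2 unit were those of NDUFA10 in SZ (1.82), ATP5J2 in MZ (1.16) and NDUFB1 (1.44), ATP5J2 (1.34), COX7A2 (1.2), NDUFS8 (1.11) and UQCR11 (1.09) in DZ. NDUFA10, NDUFB1, NDUFS8 and UQCR11 were chosen for naming after their values were seen. With 1 array per animal and zone, the animal, its dissection and its amplification cannot be told apart, so no test of the animals is given. The block in the model removes a difference that is equal in all zones.

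**Figure D3:**
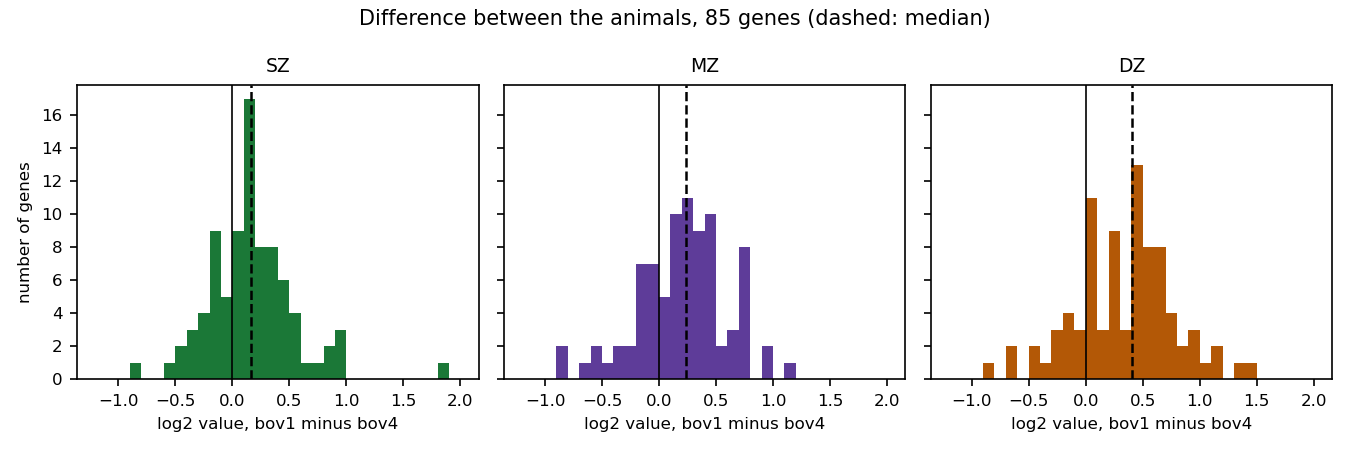
Number of genes by their log2 difference of bov1 minus bov4, in SZ, MZ and DZ. The dashed lines are the medians, 0.16 in SZ, 0.24 in MZ and 0.41 in DZ, all above 0.

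Other mitochondrial and energy lists were read in the same fit, 1 probeset a gene. Of 23 measured assembly factors 0 were called in any comparison, and their medians were -0.06 for SZ minus MZ, -0.09 for SZ minus DZ and -0.10 for MZ minus DZ. Of 18 genes of the tricarboxylic acid cycle and pyruvate dehydrogenase 0 were called, with medians of -0.14, -0.22 and -0.14 for these comparisons. Of 22 glycolysis and lactate genes 0 were called, with medians of -0.04, -0.09 and -0.03. Of 25 carriers, porins and import genes 0 were called, with medians of 0.06, 0.01 and -0.09, and of 11 regulators of mitochondrial biogenesis 0 were called, with medians of -0.01, -0.02 and 0.09. All these medians lie within 0.22 log2 units of 0. Among all probesets the called shares were 0.0416% between SZ and MZ, 2.75% between SZ and DZ, and 0.704% between MZ and DZ. With shares this low, counts of 0 in lists of 11 to 25 genes do not set these lists apart.

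Of 14 electron carriers and their synthesis genes 1 was called, AOX1 for SZ against DZ, where 2.75% of all probesets were called, and the medians were -0.04, -0.01 and 0.00. AOX1, aldehyde oxidase, is a cytosolic enzyme and no carrier of the chain. It was 7.97 and 8.60 in SZ, 7.16 and 7.29 in MZ, and 6.74 and 6.97 in DZ, higher in SZ than DZ by 1.43 (SE 0.25, adjusted p = 0.0421, close to the threshold). CYCS, cytochrome c itself, was 6.48 and 6.66 in SZ, 6.67 and 6.47 in MZ, and 6.90 and 6.32 in DZ, a range in which the zones overlapped. Of 71 mitochondrial ribosomal proteins 1 was called, again for SZ against DZ and below that background share. It was MRPS6, which was 8.97 and 8.39 in SZ, 10.30 and 10.25 in MZ, and 10.16 and 10.23 in DZ. It was lower in SZ than DZ by a difference of -1.52 (SE 0.26, adjusted p = 0.0423), and SZ minus MZ was -1.60 (adjusted p = 0.12). The medians of the 71 were -0.04, -0.02 and -0.09.

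**Figure D4:**
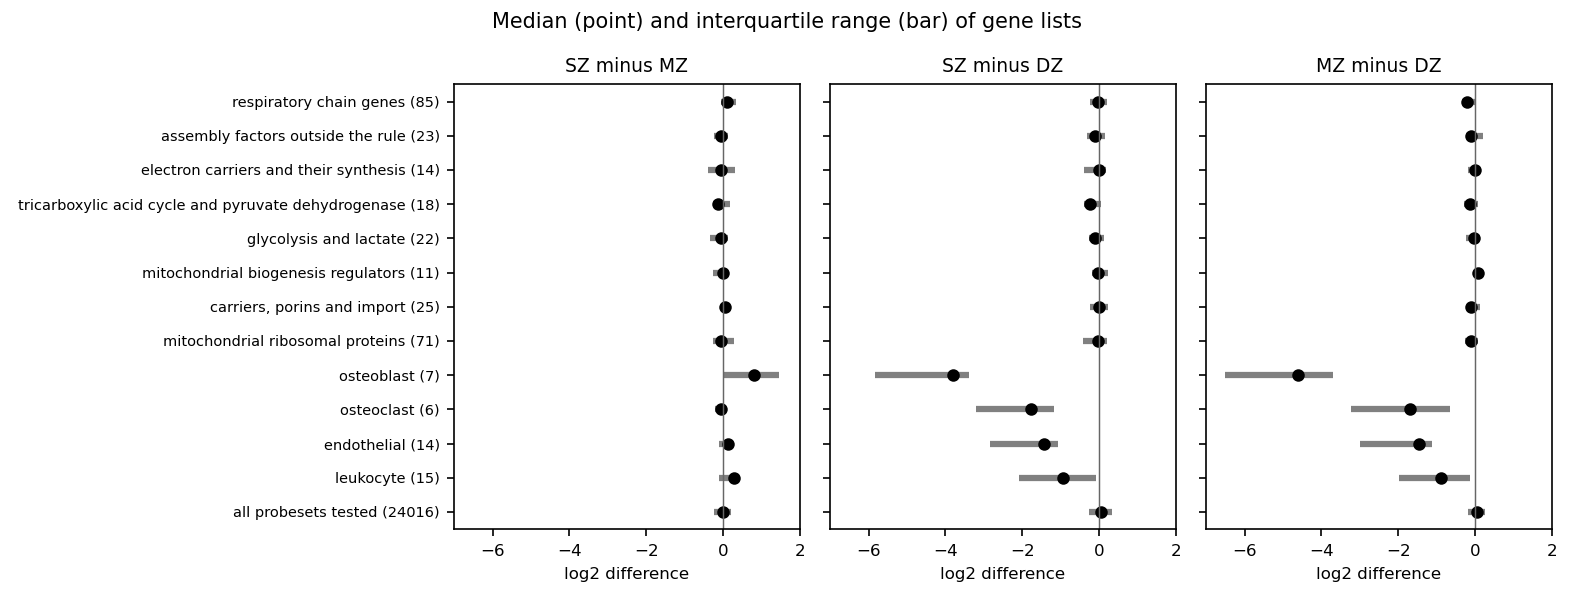
Median (point) and interquartile range (bar) of the log2 difference over the genes of each list, for SZ minus MZ, SZ minus DZ and MZ minus DZ. The respiratory chain and the other mitochondrial lists sit near 0, and the bone cell lists lie far below 0 in both comparisons with DZ.

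Of 12 chondrocyte markers COL2A1 was at 13.69 to 14.15 and ACAN at 12.12 to 13.27 on all arrays, but others varied with depth. COL9A2 and CNMD were called lower in SZ than DZ, with differences of -1.74 and -4.80, and the medians of the 12 were -0.42 for SZ minus MZ, -0.31 for SZ minus DZ and 0.02 for MZ minus DZ. Several markers of bone, vessel and blood cells were higher in DZ. Of 7 osteoblast markers 4 were called lower in SZ than DZ and 3 lower in MZ than DZ, and the log2 of their summed level was 9.07 to 10.14 in SZ, 7.99 to 10.32 in MZ and 14.16 to 14.49 in DZ. Of 6 osteoclast markers 2 were called lower in both SZ and MZ, with summed levels of 8.98 to 9.95 in SZ, 9.42 to 10.25 in MZ and 11.68 to 12.13 in DZ. Of 15 leukocyte markers 5 were called lower in SZ and 4 in MZ (7.41 to 7.52 in SZ, 7.20 to 7.27 in MZ, 9.50 to 9.62 in DZ), and of 14 endothelial markers 4 in SZ and 3 in MZ (9.24 to 9.54 in SZ, 8.44 to 9.20 in MZ, 9.11 to 10.70 in DZ). Of 9 adipocyte markers 1 was called lower in both (7.26 to 7.68 in SZ, 6.65 to 7.61 in MZ, 8.70 to 10.09 in DZ), and of 8 red cell markers 0 (6.77 to 7.17 in SZ, 6.69 to 7.46 in MZ, 7.03 to 7.11 in DZ). A summed level follows the brightest probesets of its list. For the endothelial markers the median level was 3.18 and 2.97 in SZ, 2.97 and 2.77 in MZ, and 4.69 and 5.74 in DZ. Their SZ minus DZ difference was below 0 for 12 of the 14 and above 0 for 2. Of 13 skeletal muscle markers 0 were called, and their summed level was 8.39 in both SZ arrays, 8.55 to 9.36 in MZ and 8.57 to 9.02 in DZ. Of 11 synovial markers 1 was called higher and 2 lower in SZ than DZ and 1 higher in MZ than DZ. Beside these counts, the share of all probesets called in either direction was 2.75% between SZ and DZ and 0.704% between MZ and DZ.

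Bone cells and blood-derived cells also have mitochondria, and the part of these cells in the DZ values of respiratory chain genes was not tested. In tissue of this kind fewer cells of a type and less RNA per cell cannot be told apart. The 3′ minus 5′ log2 difference of the cyclophilin control probesets, read as a sign of RNA quality, was 2.24 and 1.69 in SZ, 2.23 and 2.66 in MZ, and 3.3 and 2.54 in DZ. It was highest on the DZ array of bov1, where the respiratory chain genes also had their highest median, and its part in that was not tested. The median of 27 Bacillus control probesets was 5.88 and 6.24 in SZ, 4.90 and 4.17 in MZ, and 3.61 and 3.56 in DZ, with no overlap between zones. Its part in the zone differences was not tested either.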

How the data were processed

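RNA of 6 cartilage samples was measured on 6 Affymetrix bovine arrays. The deposited value table holds 1 log2 value per probeset and array, normalised between arrays by the authors, and RMA is named, with no version, per the submitters' processing notes. A second table deposited by the authors, named for dCHIP, also holds log2 values and gave the gene symbols. Its settings are not given in the sources used here. Neither table has detection calls, and the number of arrays limits the precision. Of 24128 probesets, 112 were controls, and the remaining 24016 entered the test unfiltered. A symbol was given for 17139. All 85 symbols were found in a RefSeq gene table (ARS-UCD2.0), which renamed 17. No genome build is named, so no coordinates are given.

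A linear model with terms for zone and animal was fitted to all 6 arrays in limma 3.58.1 (R 4.3.3), with 2 residual and 4.151 prior degrees of freedom. Tests were two-sided, with 95% intervals from the moderated t distribution and Benjamini-Hochberg adjustment over 24016 probesets. Groups and animals come from the labels, which number each animal's arrays alike. Across probesets, bov1 minus bov4 in SZ correlated with r = 0.259 with that in MZ and 0.216 with that in DZ, and the MZ and DZ values gave r = 0.346. P-values rest on how far the zone differences disagreed between the 2 animals, moderated by the spread over all probesets. The difference between the animals that is equal in all zones does not enter them. The procedure was tested on simulated data, which does not show that differences as small as those of the respiratory chain genes would be called.

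The gene family, the lists and the alternatives were chosen with earlier results of these data known, and the symbol rule then fixed the members. Named were any called member, the 5 highest and 5 lowest members of a comparison that moved alike in both animals, and fixed tissue isoforms and core subunits. Genes given by rank order or by the animal difference alone were named after their values were seen. The values of 1 gene are not reported here.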

Additional observations from a re-analysis of the deposited data

How the results depend on the processing

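Called counts among the respiratory chain genes were 0 under the 14 alternatives run for SZ against MZ and the 13 run for SZ against DZ, MZ against DZ and the F test, including the fit without the animal as replicate block. With dim probesets left out 83 of the 85 genes were tested. Over all probesets the count of SZ against MZ, 10 here, was 3 without the replicate block, 136 in the dCHIP table, 180 with dim probesets left out, 99 with an intensity trend in the variance and 31 with the SZ and MZ arrays only. The count of SZ against DZ, 660 here, was 295 without the replicate block and 1262 in the dCHIP table. The count of MZ against DZ, 169 here, was 62 without the block, 259 in the dCHIP table and 272 with the trend, and that of the F test, 443 here, was 169 without the block and 828 in the dCHIP table. Leaving out 1 array gave 0 to 31 for SZ against MZ (0 without any 1 of the SZ and MZ arrays, 31 without either DZ array), 204 to 646 for SZ against DZ (204 without the DZ array of bov4, 248 without the SZ array of bov1, 337 without the DZ array of bov1), 12 to 258 for MZ against DZ (12 without the MZ array of bov4, 46 without that of bov1, 74 without the DZ array of bov4, 258 without either SZ array) and 154 to 434 for the F test (154 without the DZ array of bov4, 246 without that of bov1, 250 without the SZ array and 271 without the MZ array of bov1). Where a fit left a zone with 1 array, that array was assumed to vary like the others.

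In the dCHIP table the SZ minus MZ median was 0.04 over the 85 genes, 0.04 for complex I, -0.30 for complex II, -0.04 for complex III, 0.12 for complex IV and 0.09 for complex V, the SZ minus DZ median was -0.14 over the 85 genes, -0.13 for complex I and -0.14 for complex V, and the MZ minus DZ median was -0.16 for complex III and -0.30 for complex V. With the mean over a gene's probesets it was 0.11 for complex I (SZ minus MZ), 0.01 for complex IV (SZ minus DZ), and 0.02 for complex III and -0.12 over the 85 genes (MZ minus DZ). Quantile normalisation gave MZ minus DZ medians of -0.04 for complex III and -0.16 for complex V, and median centring -0.19 for complex V. The cause of these shifts was not tested. Leaving out 1 array gave, for SZ minus MZ, 0.08 to 0.19 over the 85 genes, 0.08 to 0.19 for complex I, -0.31 to -0.04 for complex II, -0.19 to 0.14 for complex III, 0.19 to 0.32 for complex IV and 0.05 to 0.38 for complex V. For SZ minus DZ it gave -0.11 to 0.09, -0.10 to 0.11, -0.69 to -0.28, -0.30 to 0.11, -0.27 to 0.11 and -0.13 to 0.19 in the same order. For MZ minus DZ it gave -0.27 to -0.09, -0.27 to -0.03, -0.52 to -0.05, -0.24 to -0.09, -0.51 to -0.16 and -0.34 to -0.12. Over the 38 named genes and these alternatives, 33 of 530 SZ minus MZ values, 34 of 492 SZ minus DZ values and 26 of 492 MZ minus DZ values had the opposite sign. As no respiratory chain gene was called, none of those values could belong to a called gene.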

Other observations

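Of the 85 names, 3 are not subunits of the chain. NDUFAF3, an assembly factor of complex I, was 5.47 ± 0.13 in SZ, 5.44 ± 0.24 in MZ and 5.52 ± 0.09 in DZ (mean ± SD of 2 arrays). COX4NB, now EMC8, was 7.96 ± 0.08 in SZ, 7.99 ± 0.56 in MZ and 8.25 ± 0.20 in DZ. ATP5S, now DMAC2L, was 4.98 ± 0.13 in SZ, 4.92 ± 0.30 in MZ and 4.41 ± 0.47 in DZ, with SZ minus DZ at 0.57 (limma adjusted p = 0.405).

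Another 22 probesets of 18 genes were dimmer than the probeset that stood for the gene, and 0 of them were called in any comparison. Their median difference was -0.04 for SZ minus MZ, 0.15 for SZ minus DZ and 0.16 for MZ minus DZ. Called shares of all probesets reached at most 2.75% (between SZ and DZ), so 0 of 22 does not set these probesets apart. COX6A1 had 2 dimmer probesets. The dimmest was 4.84 and 2.77 in SZ, 3.32 and 3.98 in MZ, and 2.15 and 2.37 in DZ, with SZ minus DZ at 1.54 (adjusted p = 0.281) and MZ minus DZ at 1.39. The other was 7.21 and 7.28 in SZ, 6.91 and 6.77 in MZ, and 7.60 and 7.18 in DZ, with SZ minus DZ at -0.15 and MZ minus DZ at -0.55. The brightest probeset gave -0.07 for SZ minus DZ and -0.47 for MZ minus DZ, so only the dimmest, whose values lay near the floor on several arrays, had the opposite sign.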
